A study of Sus scrofa with 6 samples.

Results

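The enzymes described here buffer the adenine nucleotides of muscle and comprise AMP deaminases, adenylate kinases and creatine kinases. They were chosen by name, as a list of 7 genes, and 5 of them (AMPD1, AMPD3, AK1, AK3 and CKMT2) were matched by gene symbol to a row among the 17627 genes of the deposited table. The identifiers paired with the symbols AMPD2 and CKM matched no row, and both genes were not analysed here. The back muscle longissimus dorsi was sampled in Wannanhua pigs, which are native to China, and in Yorkshire pigs, which are bred commercially for lean meat, with 3 libraries from each breed. All libraries are labelled as coming from animals 5 months old, although the design text of the series speaks of piglets. No treatment is named, and the labels give neither the sex of the animals nor a statement that each library came from a separate animal. Each p-value is thus set against a spread between libraries that could be technical. Breed is the only factor by which the labels separate the libraries, and the series asks which muscle transcripts differ between the breeds.

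In muscle, creatine kinase passes phosphate from phosphocreatine to ADP and so restores ATP within moments of contraction. Adenylate kinase makes ATP and AMP from a pair of ADP molecules. AMP deaminase then turns AMP into IMP and ammonia, which pulls the adenylate kinase reaction toward ATP, and the purine nucleotide cycle later returns IMP to AMP. From human and rodent tissue, AMPD1 is known as the deaminase of skeletal muscle and is most active in fast fibres, whereas AMPD3 is known as the red-cell deaminase and is also made in other tissues. AK1 is the cytosolic adenylate kinase of muscle, AK3 is an enzyme of the mitochondrial matrix that uses GTP, and CKMT2 is the creatine kinase of sarcomeric mitochondria.

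The libraries held between 16385602 and 21056699 reads, as approximated from the scaled counts. Of the 8 genes of the fixed muscle marker list, 5 were matched to a row (DES, ACTN2, CAPN3, NEB and TCAP). They summed to between 9851 and 15762 FPKM in Wannanhua and between 5706 and 7363 FPKM in Yorkshire. FPKM counts fragments per kilobase of transcript, scaled to the mapped fragments of the library. Log2 fold changes, Wannanhua minus Yorkshire, were 0.98 for DES, 2.01 for ACTN2, -0.20 for CAPN3, 0.35 for NEB and 1.11 for TCAP. Only ACTN2 passed (limma adjusted p = 0.0312), where 3.05% of all genes tested passed. The first principal component, with 45.7% of the variance, placed the Wannanhua libraries at -45.08 to -16.56 and the Yorkshire libraries at 23.61 to 42.47, with Wannanhua 3 nearest to Yorkshire. The log2 fold change of each enzyme is therefore given with and without Wannanhua 3. Shares, marker sums, levels relative to marker lists and nearest genes are given with all libraries only. Fewer cells of a type and less RNA per cell cannot be told apart in such bulk samples. The median log2 fold change of all 11791 genes tested was 0.12, and 0.0042 after quantile normalization. After quantile normalization the log2 fold change was 3.45 for AMPD3, 1.28 for AK3, -2.22 for AK1, -1.54 for AMPD1 and -0.02 for CKMT2.

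The 5 enzymes split in direction. In Wannanhua muscle AMPD3 was 20.5-fold higher and AK3 2.70-fold higher by group means, AK1 was 4.56-fold lower, AMPD1 had a lower mean that did not pass the test, and the CKMT2 libraries of the breeds overlapped. Thus 3 of the 5 passed an adjusted p of 0.05 in limma, 2 higher and 1 lower, where 3.05% of all genes tested passed (1.76% higher and 1.29% lower). The breeds did not overlap in 2 enzymes that were higher and 2 that were lower in Wannanhua, where 20.3% of all genes tested lay higher and 9.63% lower without overlap, 29.9% in all. Every one of the 5 was at 1 FPKM or more in all 6 libraries, so none entered the test through one breed alone. The count of 3 became 4 without Wannanhua 3, 1 without Wannanhua 1, Wannanhua 2, Yorkshire 1 or Yorkshire 2, and 0 without Yorkshire 3. In the same settings the count over all genes, 360, became 524 without Wannanhua 3, 41 and 30 without Wannanhua 1 and 2, and 190, 58 and 27 without Yorkshire 1, 2 and 3.

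**Figure D1:**
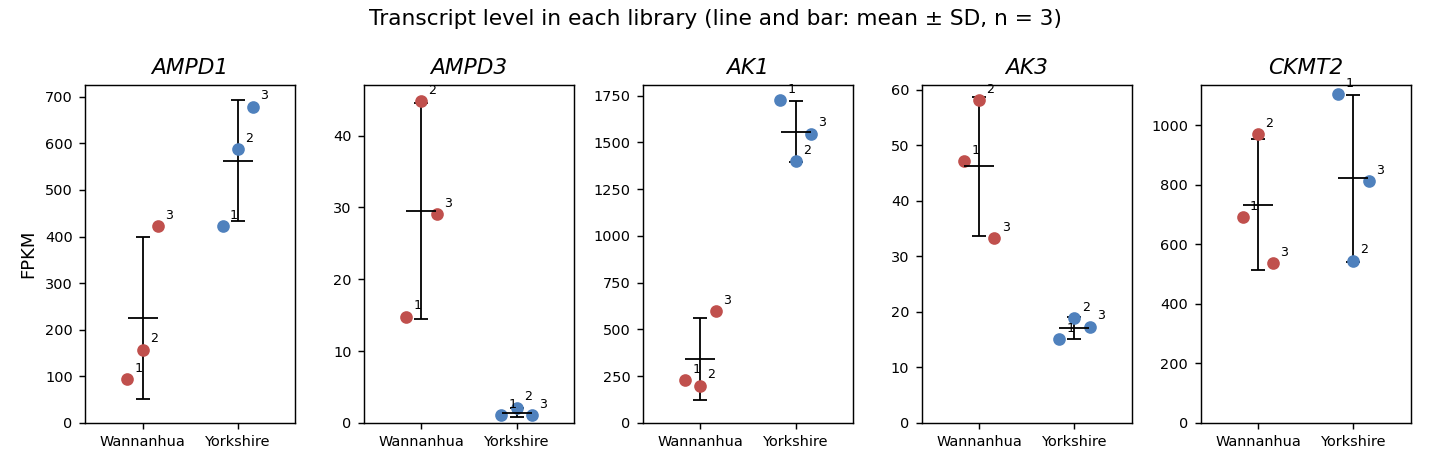
FPKM (vertical axes, linear, each from 0) of the 5 enzymes in the 3 Wannanhua libraries (left, red) and the 3 Yorkshire libraries (right, blue); numbers are replicate numbers, and the line and bar give the mean and SD. The AMPD3 and AK3 libraries of Wannanhua lie above those of Yorkshire, the AK1 libraries lie below, AMPD1 of Wannanhua 3 reaches 421.9 FPKM beside 422.4 FPKM in Yorkshire 1, and the CKMT2 libraries overlap.

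AMPD1 (ENSSSCG00000006754), the deaminase that acts on AMP in contracting fibres, stood at 94.0, 157 and 422 FPKM in Wannanhua 1, 2 and 3. The Yorkshire libraries 1, 2 and 3 had 422, 588 and 679 FPKM. The Wannanhua values spread over a wide range, and the highest of them all but touched the lowest Yorkshire value. The means were 224 ± 174 FPKM in Wannanhua and 563 ± 130 FPKM in Yorkshire (SD, n = 3 each), and the log2 fold change on the log2(FPKM + 1) scale was -1.58 ± 0.51 (SE; limma adjusted p = 0.133). Without Wannanhua 3 the log2 fold change was -2.18 and passed, with a limma adjusted p of 0.0195. Over the 15 alternative settings the limma adjusted p of AMPD1 ran from 0.0195 to 0.328.

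AMPD3 (ENSSSCG00000022492), the deaminase best known from red cells, stood at 14.8, 44.9 and 29.0 FPKM in Wannanhua 1, 2 and 3. The Yorkshire libraries 1, 2 and 3 had 1.11, 2.13 and 1.07 FPKM. Every Wannanhua library lay above every Yorkshire library, and the nearest values were 6.93-fold apart. The means were 29.6 ± 15.0 FPKM in Wannanhua and 1.44 ± 0.60 FPKM in Yorkshire (SD, n = 3 each), with a log2 fold change of 3.54 ± 0.39 (SE; limma adjusted p = 0.00950). By size of log2 fold change AMPD3 ranked 22 among the 11791 genes tested. By mean FPKM it ranked 2143 among the 17627 genes in Wannanhua and 10653 in Yorkshire. The deposited scaled counts behind these values were 623, 1836 and 1205 in Wannanhua, against 45.9, 85.6 and 43.9 in Yorkshire. Because the Yorkshire values lie close to the added constant of 1, the log2 value understates the change, and it was 4.20 with a constant of 0.1 and 2.33 with a constant of 5. Without Yorkshire 3 the log2 fold change was 3.44 with a limma adjusted p of 0.0556, and the adjusted p ran from 0.00582 to 0.0556 over the 15 alternatives. Without Wannanhua 3 it was 3.49.

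AMPD3 is abundant in red cells, and red cell markers were therefore read beside it. Of the 8 red cell markers listed, 4 had a row, and their summed level ran from 43.4 to 142 FPKM in Wannanhua and from 15.8 to 93.6 FPKM in Yorkshire, nearly all of it HBB, the beta globin. HBB stood at 141, 116 and 42.9 FPKM in Wannanhua 1, 2 and 3, and had 93.1, 15.5 and 18.0 FPKM in Yorkshire 1, 2 and 3 (limma adjusted p = 0.26). ALAS2, which starts heme synthesis in red cell precursors, stood at 1.44, 1.20 and 0.485 FPKM in the Wannanhua libraries, against 0.543, 0.277 and 0.411 FPKM in the Yorkshire libraries. SLC4A1, the red cell anion exchanger, was at or near 0 in all libraries, with at most 0.0239 FPKM. The part of red cells in the AMPD3 difference was not tested.

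The deaminase transcripts therefore differed in make-up. AMPD3 made up 13.6%, 22.2% and 6.44% of the summed FPKM of AMPD1 and AMPD3 in Wannanhua 1, 2 and 3, against 0.263%, 0.362% and 0.157% in Yorkshire 1, 2 and 3. AMPD1 was the larger part in every library of both breeds. The sum itself was 109, 202 and 451 FPKM in Wannanhua and 424, 590 and 680 FPKM in Yorkshire, so the breeds overlapped in the sum at Wannanhua 3 and Yorkshire 1. These shares leave out AMPD2, and intervals from counting error were not computed for them.

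AK1 (ENSSSCG00000005627), the cytosolic enzyme that makes ATP and AMP from ADP, stood at 230, 199 and 596 FPKM in Wannanhua 1, 2 and 3. The Yorkshire libraries 1, 2 and 3 had 1727, 1398 and 1547 FPKM. The breeds did not overlap, within Wannanhua the library closest to Yorkshire was Wannanhua 3, and the nearest values were 2.35-fold apart. The means were 342 ± 221 FPKM in Wannanhua and 1557 ± 165 FPKM in Yorkshire (SD, n = 3 each), with a log2 fold change of -2.36 ± 0.41 (SE; limma adjusted p = 0.0381). AK1 ranked 271 by mean FPKM among the 17627 genes in Wannanhua and 64 in Yorkshire. Without Wannanhua 3 the log2 fold change was -2.85, with a limma adjusted p of 0.00340. The call was lost without any other single library, at limma adjusted p values of 0.140 and 0.126 without Wannanhua 1 and 2 and of 0.0707, 0.0898 and 0.135 without Yorkshire 1, 2 and 3. It was also lost with no filter on low values (0.0653), and the range over the 15 alternatives was 0.00340 to 0.140.

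AK3 (ENSSSCG00000023595), the matrix enzyme that phosphorylates AMP with GTP, stood at 47.2, 58.1 and 33.2 FPKM in Wannanhua 1, 2 and 3. The Yorkshire libraries 1, 2 and 3 had 15.1, 18.9 and 17.3 FPKM. Again the breeds did not overlap, and Wannanhua 3 lay nearest to Yorkshire, 1.76-fold above the highest Yorkshire library. The means were 46.2 ± 12.5 FPKM in Wannanhua and 17.1 ± 1.91 FPKM in Yorkshire (SD, n = 3 each), with a log2 fold change of 1.35 ± 0.23 (SE; limma adjusted p = 0.0381). Without Wannanhua 3 it was 1.57, with a limma adjusted p of 0.0127. The call was lost without Wannanhua 1 or 2 (limma adjusted p = 0.136 and 0.124), without Yorkshire 1, 2 or 3 (limma adjusted p = 0.0652, 0.0898 and 0.135) and with no filter (limma adjusted p = 0.0645). Over the 15 alternatives its adjusted p ran from 0.0127 to 0.136.

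For AK3 the deposited FPKM and scaled count did not keep one ratio. Relative to the gene's median over the libraries and to the library's median over genes, FPKM per scaled count was 1.17 in Wannanhua 1 and between 0.944 and 1.02 in the other 5 libraries. For AMPD1, AMPD3, AK1 and CKMT2 this relative ratio stayed between 0.962 and 1.03 in all 6 libraries. On the scaled counts AK3 had 3965, 5740 and 3232 in Wannanhua 1, 2 and 3, against 1606, 1916 and 1732 in Yorkshire 1, 2 and 3, still without overlap. The log2 fold change of the scaled counts was 1.26 (limma adjusted p = 0.0353).

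CKMT2 (ENSSSCG00000014128), the mitochondrial creatine kinase that loads creatine with phosphate where ATP is made, stood at 691, 970 and 538 FPKM in Wannanhua 1, 2 and 3. The Yorkshire libraries 1, 2 and 3 had 1105, 545 and 812 FPKM. The libraries of the breeds were interleaved, with the lowest value in Wannanhua 3 and the highest in Yorkshire 1. The means were 733 ± 219 FPKM in Wannanhua and 821 ± 280 FPKM in Yorkshire (SD, n = 3 each), with a log2 fold change of -0.15 ± 0.33 (SE; limma adjusted p = 0.827). The 95% interval of that log2 fold change ran from -0.92 to 0.62. The sign turned without Wannanhua 3 (0.06) and without Yorkshire 1 (0.10). CKMT2 ranked 135 by mean FPKM in Wannanhua and 126 in Yorkshire among the 17627 genes.

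**Figure D2:**
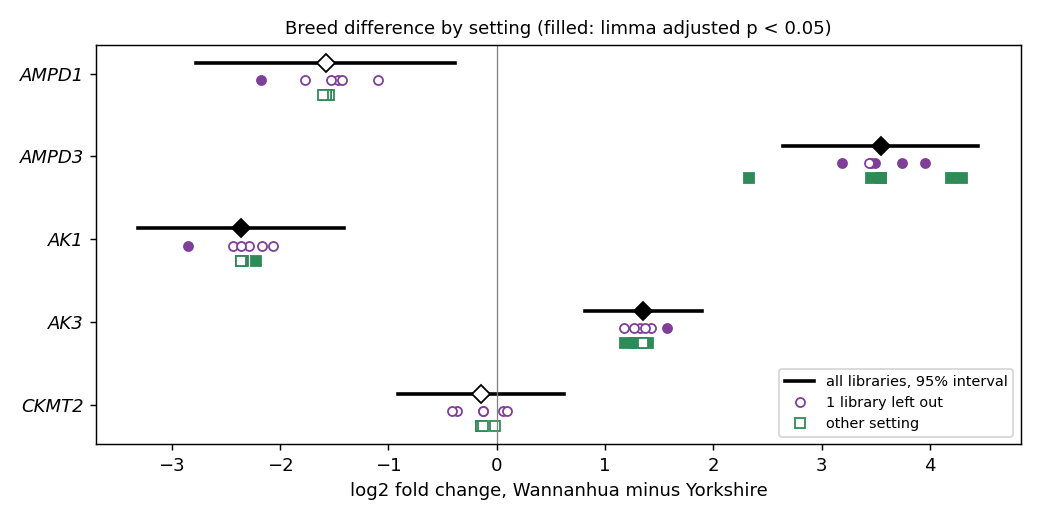
Log2 fold change, Wannanhua minus Yorkshire, on the horizontal axis for the 5 enzymes; diamonds with lines give the value with all 6 libraries and its 95% interval, purple circles the values with 1 library left out and green squares the other settings, filled where the limma adjusted p was under 0.05. The AMPD3 symbols lie between 2.33 and 4.30, the AK1 symbols between -2.85 and -2.06, and the CKMT2 symbols on both sides of 0.

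FPKM is scaled by transcript length, so levels can be set in order within a library. In Wannanhua the order of the mean FPKM was CKMT2 (733), AK1 (342), AMPD1 (224), AK3 (46.2) and AMPD3 (29.6). In Yorkshire it was AK1 (1557), CKMT2 (821), AMPD1 (563), AK3 (17.1) and AMPD3 (1.44). CKMT2 was above AK1 in Wannanhua 1 and 2 and below it in Wannanhua 3 and in all 3 Yorkshire libraries. In Wannanhua each neighbour in this order overlapped with the next in FPKM except AMPD1 and AK3, while in Yorkshire CKMT2 and AMPD1 overlapped and the other neighbours did not.

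Ratios between enzymes of one family were read in each library. The log2 ratio of AMPD3 to AMPD1 FPKM was -2.67, -1.81 and -3.86 in Wannanhua 1, 2 and 3, against -8.57, -8.11 and -9.31 in Yorkshire 1, 2 and 3. The breeds differed by 5.88 in this log2 ratio, with means of -2.78 ± 1.03 in Wannanhua and -8.66 ± 0.61 in Yorkshire (SD, n = 3 each; two-sided exact permutation p = 0.1). The log2 ratio of AK3 to AK1 FPKM was -2.29, -1.78 and -4.17 in Wannanhua 1, 2 and 3, against -6.84, -6.21 and -6.48 in Yorkshire 1, 2 and 3. It differed by 3.77 between breeds, with means of -2.74 ± 1.26 in Wannanhua and -6.51 ± 0.32 in Yorkshire (SD, n = 3 each; two-sided exact permutation p = 0.1). In both ratios all 3 Wannanhua libraries lay above all 3 Yorkshire libraries, and Wannanhua 3 lay lowest within Wannanhua. AMPD3 and AK3 alone already lay higher, and AMPD1 and AK1 lower, without overlap. The separation of the ratios and their exact permutation p were thus fixed beforehand and give no further support. The value of 0.1 is the smallest that 3 against 3 libraries allow, and it is unchanged by adjustment over the 2 ratios, so neither could pass a threshold of 0.05.

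**Figure D3:**
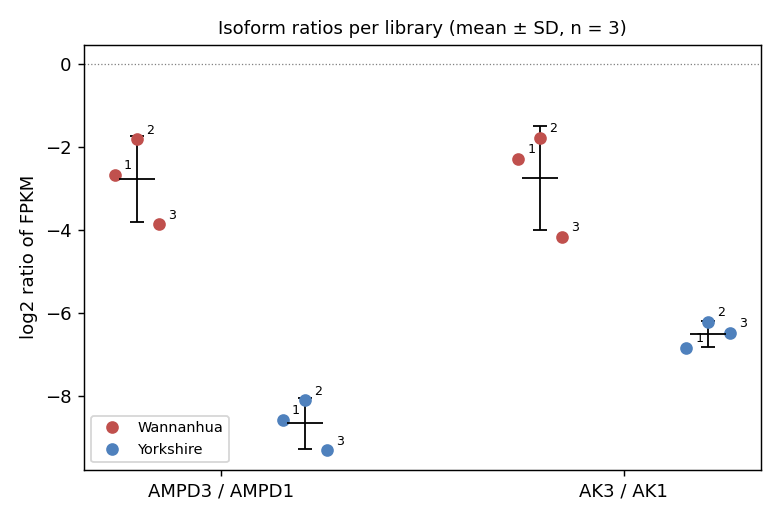
Log2 ratio of FPKM (vertical axis) of AMPD3 to AMPD1 and of AK3 to AK1, with 1 point per library, Wannanhua in red to the left and Yorkshire in blue to the right, and mean and SD as line and bar. The lowest Wannanhua ratio of each pair (-3.86 and -4.17) lies above the highest Yorkshire ratio (-8.11 and -6.21), which follows from the non-overlap of each enzyme alone.

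Markers of fibre type were read beside these enzymes. Of 14 fast fibre markers, 7 were matched by symbol to a row, namely TNNC2, MYL1, TPM1, ATP2A1, CASQ1, PVALB and MYBPC2. Their summed level was 24299, 13594 and 43861 FPKM in Wannanhua 1, 2 and 3, against 68765 to 70737 FPKM in Yorkshire. Of 10 slow fibre markers, 4 were matched (TNNI1, TNNT1, TNNC1 and MYL3). These 4 summed to 38305, 41055 and 10108 FPKM in Wannanhua 1, 2 and 3, against 17014, 5577 and 9978 FPKM in Yorkshire 1, 2 and 3. The unmatched markers may lie among the rows without a symbol. All 7 fast markers had a negative log2 fold change, of which CASQ1 passed the limma test, 5 had an unadjusted p under 0.05 and 5 were lower without overlap between breeds. All 4 slow markers had a positive log2 fold change, of which 0 passed limma's threshold, 1 had an unadjusted p under 0.05 and 0 were without overlap. Of all genes tested 3.05% passed, 22.1% had an unadjusted p under 0.05, and without overlap 9.63% were lower and 20.3% higher in Wannanhua. Wannanhua 3 stood among or next to the Yorkshire libraries in both lists, as it did for AMPD1, and the only fibre marker near 0 was PVALB in Wannanhua 1, at 0.106 FPKM.

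The levels of the enzymes were also read relative to the mean log2(FPKM + 1) of each marker list in the same library, a description chosen after the values were seen. The fast list mean includes PVALB, at 0.106 FPKM in Wannanhua 1 and with a log2 fold change of -2.73 ± 1.28 (SE). Values relative to the fast list thus depend in part on PVALB, and they were not computed without it. Relative to the fast list, AMPD1 lay at -3.23, -2.36 and -2.64 in Wannanhua 1, 2 and 3, against -3.15, -2.69 and -2.67 in Yorkshire 1, 2 and 3, a breed difference of 0.09 with overlapping libraries. AK1 relative to the fast list lay at -1.95, -2.02 and -2.14 in Wannanhua and -1.12, -1.44 and -1.48 in Yorkshire. That is a difference of -0.69 without overlap, where the difference in AK1 alone was -2.36. AK3 relative to the slow list differed by -0.03 between breeds and overlapped, whereas relative to the fast list it differed by 3.02 without overlap. AMPD3 differed by 2.16 relative to the slow list, with overlap, and by 5.22 relative to the fast list, without overlap. CKMT2 differed by -1.53 relative to the slow list, without overlap, and by 1.53 relative to the fast list, with overlap. CKMT2 alone differed by -0.15, with overlap, so these values largely carry the breed differences of the lists themselves. The share of all genes tested that would lie without overlap relative to either list was not computed. The part of fibre type in the breed differences was not tested.

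**Figure D4:**
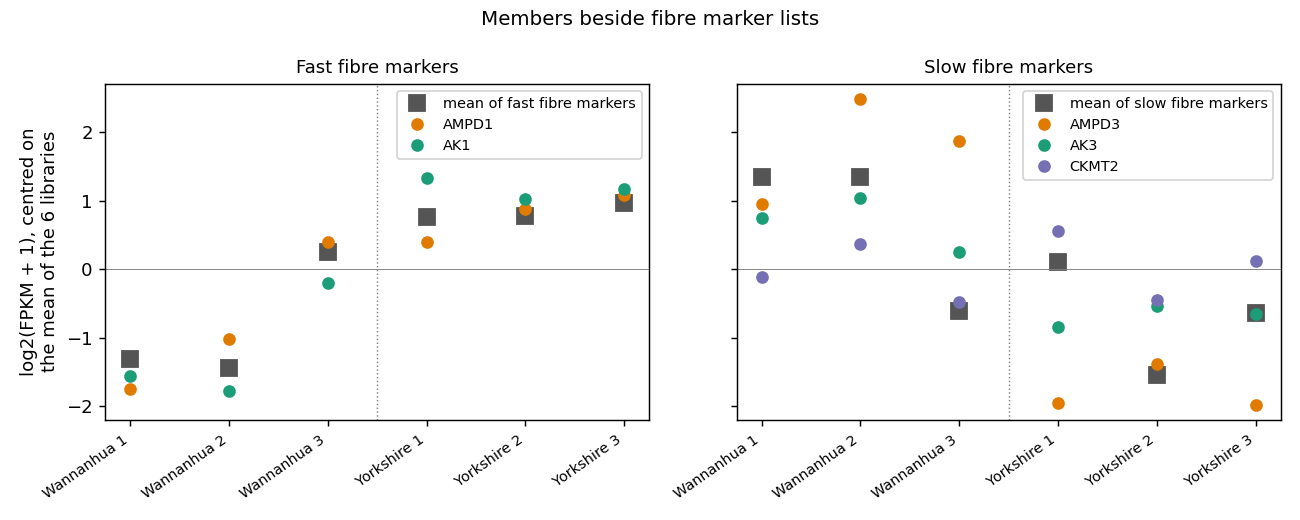
Log2(FPKM + 1) of each library, centred on the mean of the 6 libraries (vertical axis); grey squares are the mean of the fast markers (left panel, with AMPD1 and AK1) and of the slow markers (right panel, with AMPD3, AK3 and CKMT2), Wannanhua left of the dotted line and Yorkshire right of it. AMPD1 lies with the fast list, PVALB included, at a breed difference of 0.09 relative to it, while AMPD3 of Wannanhua 3 stays high where the slow list is low.

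Markers of other cells were read as well, and their part in the differences was not tested. Endothelial markers (3 of 6 with a row) summed to 35.1 to 52.1 FPKM in Wannanhua and 39.1 to 47.4 FPKM in Yorkshire, and macrophage markers (4 of 6) to 12.9 to 15.8 FPKM in Wannanhua and 10.6 to 21.8 FPKM in Yorkshire. Adipocyte markers (2 of 5) summed to 10.155 to 13.9 FPKM in Wannanhua and 1.29 to 12.0 FPKM in Yorkshire, fibroblast markers (5 of 6) to 281 to 365 FPKM in Wannanhua and 316 to 766 FPKM in Yorkshire, and smooth muscle markers (4 of 4) to 76.9 to 229 FPKM in Wannanhua and 91.8 to 133 FPKM in Yorkshire. The breeds overlapped in each of these sums. Among their members, the fibroblast marker COL1A2 and the macrophage marker CD68 were lower in Wannanhua without overlap (limma adjusted p = 0.119 and 0.486). Of all genes tested, 9.63% lay lower and 20.3% higher without overlap. The breeds also did not overlap in the T cell markers CD3D and CD2. CD3D stood at 0.473 to 0.564 FPKM in Wannanhua and 0.753 to 0.887 FPKM in Yorkshire. CD2 stood at 0.305 to 0.488 FPKM in Wannanhua and 0.659 to 0.878 FPKM in Yorkshire. Both were lower in Wannanhua, and at under 1 FPKM neither was tested.

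The genes with the most similar pattern were found as the 3 with the smallest root mean square distance in log2(FPKM + 1) over the 6 libraries, each gene centred on its own mean, among 7243 tested genes with a symbol. For AK1 these were ENO3, PGK1 and PKM, which encode enzymes of glycolysis, at distances of 0.163, 0.165 and 0.166. For AK3 they were PRKCQ, PPP2CA and PLAAT3, at 0.078, 0.105 and 0.106. For AMPD1, chosen for mention after its values were seen, they were PHKA1, GPD2 and LINGO1, at 0.210, 0.264 and 0.279, of which PHKA1 encodes the muscle alpha subunit of phosphorylase kinase. AMPD3 had no gene so near, and its nearest were FBXO32, ZNF385A and NEK3 at 0.607, 0.821 and 0.836. The distance was not scaled and so also depends on the size of a change, by which AMPD3 ranked 22 among the genes tested. Its larger distances therefore do not show a pattern of its own. FBXO32, a ubiquitin ligase that marks muscle proteins for breakdown, stood at 94.8, 229 and 183 FPKM in Wannanhua 1, 2 and 3, against 19.9, 34.4 and 33.6 FPKM in Yorkshire 1, 2 and 3. In both genes Wannanhua 1 was the lowest and Wannanhua 2 the highest of its breed. Yorkshire 2 was the highest of its breed in both, but the lowest was Yorkshire 3 for AMPD3 and Yorkshire 1 for FBXO32. FBXO32 was picked for its nearness over these same libraries, so a shared order is no separate result. For CKMT2, likewise chosen, the nearest were NDUFA6 and NDUFV1, which encode subunits of respiratory complex I, and DVL1, at 0.126, 0.132 and 0.132. These distances describe 6 libraries that also share their breed difference.

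Neighbouring enzymes of purine and creatine metabolism were taken as a list of 58 symbols, of which 36 had a row and 29 passed the filter on low values. Of the 29, 2 were higher and 1 lower past the limma threshold, against 3.05% of all genes tested, and their median log2 fold change was 0.13, against 0.12 over all genes. NT5C2, a cytosolic nucleotidase that acts on IMP and GMP, stood at 98.6, 100.2 and 74.4 FPKM in Wannanhua 1, 2 and 3, against 14.8, 36.4 and 28.2 FPKM in Yorkshire 1, 2 and 3 (log2 fold change 1.82 ± 0.32 SE; limma adjusted p = 0.0397). NT5M, a mitochondrial nucleotidase for deoxynucleotides, stood at 12.0, 11.5 and 13.3 FPKM in the Wannanhua libraries and 6.87, 6.02 and 5.48 FPKM in Yorkshire (log2 fold change 0.90 ± 0.17 SE; limma adjusted p = 0.0412). ATIC, which carries out the last steps in the making of IMP, stood at 3.07, 4.53 and 3.32 FPKM in Wannanhua and 10.8, 10.4 and 8.41 FPKM in Yorkshire (log2 fold change -1.23 ± 0.19 SE; limma adjusted p = 0.0321). None of these 3 genes, already picked by the limma threshold, overlapped between breeds. Of the 29, 7 lay higher and 3 lower without overlap, where 20.3% of all genes tested lay higher and 9.63% lower. NT5C2 was lost without Wannanhua 1 or 2 or Yorkshire 2 or 3 (limma adjusted p = 0.140, 0.1375, 0.0544 and 0.1295), and it ran from 0.0301 to 0.140 over its alternatives. ATIC was lost without those 4 libraries and without Yorkshire 1 (limma adjusted p from 0.0523 to 0.121), and NT5M was lost without each library but Yorkshire 1 (limma adjusted p from 0.0603 to 0.159), with the replicate number as a block (0.0743) and after quantile normalization (0.0707). With no filter on low values NT5C2, ATIC and NT5M all missed the threshold (limma adjusted p = 0.0689, 0.0550 and 0.0672).

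Of all genes tested 3.05% passed and 22.1% had an unadjusted p under 0.05. In the groups for creatine kinase, creatine making and uptake, the purine nucleotide cycle, nucleoside diphosphate kinases and ATP and ADP exchange, 0 of 14 tested members passed limma's threshold. Of these, 2 had an unadjusted p under 0.05, namely GATM, an enzyme of creatine synthesis, and VDAC3, an outer membrane channel, both picked out once their values were known (log2 fold change 0.71 and 0.76; limma adjusted p = 0.107 and 0.0604). With the filter raised to 5 FPKM, VDAC3 passed (limma adjusted p = 0.0482), and it passed in no other alternative. SLC25A4, the ADP and ATP carrier of muscle mitochondria, stood at 1527 ± 175 FPKM in Wannanhua and 1240 ± 571 FPKM in Yorkshire (SD, n = 3 each; limma adjusted p = 0.521). VDAC1, of the same channel family, stood at 502 ± 64.0 FPKM in Wannanhua and 489 ± 61.1 FPKM in Yorkshire (limma adjusted p = 0.936). ADSL and ADSS2, which return IMP to AMP, stood at 53.0 ± 14.6 and 5.72 ± 0.57 FPKM in Wannanhua and 59.7 ± 10.9 and 5.50 ± 1.20 FPKM in Yorkshire, with limma adjusted p values of 0.694 and 0.885. The creatine transporter SLC6A8 stood at 56.7 ± 16.8 FPKM in Wannanhua and 78.8 ± 6.59 FPKM in Yorkshire (limma adjusted p = 0.246). GAMT, which completes creatine synthesis, stood at 88.2 ± 19.8 FPKM in Wannanhua and 120 ± 20.3 FPKM in Yorkshire (limma adjusted p = 0.301). CKB, the brain-type creatine kinase, stood at 2.50 ± 1.12 FPKM in Wannanhua and 3.34 ± 2.32 FPKM in Yorkshire (limma adjusted p = 0.781). The further adenylate kinases with a row, AK5 and AK7, stayed under 1 FPKM in all libraries and were not tested. NT5C1A, the muscle nucleotidase that acts on AMP, stood at 55.6, 77.0 and 40.2 FPKM in Wannanhua 1, 2 and 3, against 8.52, 30.4 and 28.3 FPKM in Yorkshire 1, 2 and 3, without overlap but at a limma adjusted p of 0.135. NME2 and NME3, which pass phosphate between nucleotides, stood at 196 ± 23.5 and 17.4 ± 1.21 FPKM in Wannanhua and 212 ± 51.6 and 20.6 ± 4.11 FPKM in Yorkshire, with limma adjusted p values of 0.834 and 0.529. PRPS1 and GMPS, of purine synthesis, stood at 21.3 ± 1.18 and 13.6 ± 1.65 FPKM in Wannanhua and 19.4 ± 2.30 and 9.60 ± 1.96 FPKM in Yorkshire, with limma adjusted p values of 0.684 and 0.214.

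**Figure D5:**
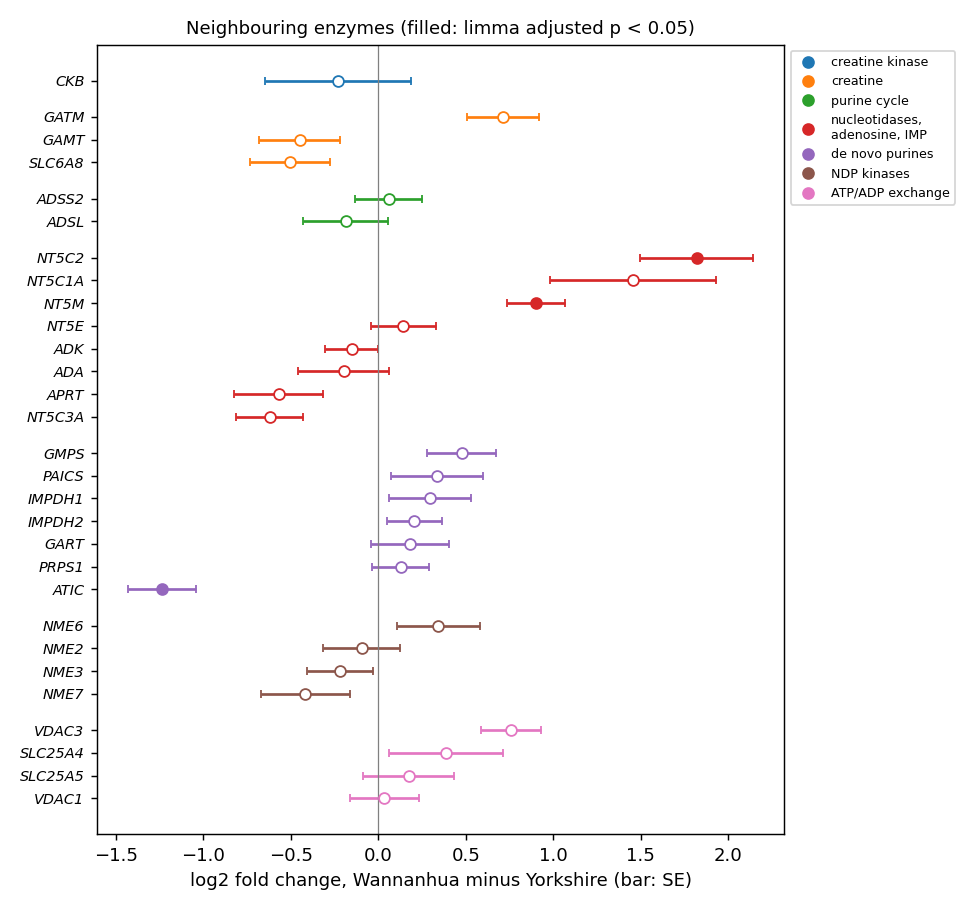
Log2 fold change, Wannanhua minus Yorkshire (horizontal axis; bars are SE), of the 29 tested neighbouring enzymes, coloured by group and filled where the limma adjusted p was under 0.05. NT5C2 (1.82) and NT5M (0.90) lie to the right and ATIC (-1.23) to the left, and the other 26 are open symbols.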

How the data were processed

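Total RNA of longissimus dorsi was selected for poly-A RNA and made into paired-end libraries with random primers, per the labels' protocols, by a kit without strand marking, so reads from antisense partners cannot be told apart. Build Sscrofa10.2, TopHat2 2.0.6 and CASAVA 1.7 are named, per the submitters' processing notes. The read counter was not given in the sources used here, nor was the annotation. The authors deposited 1 table of 17627 genes that gives each of the 6 libraries an FPKM column and a count column. The deposited count values are not whole, and are read here as a signal that scales reads by a factor of the library. Per library 99.71% to 99.83% of them were whole multiples of 1 step (within 0.01 of a read or a relative 1e-05), which gave the approximate reads. An independent search from the smallest value did not find the step in 4 of the 6 libraries, so no count test was run.

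Symbols were looked up by Ensembl identifier (release not stated), and 10384 identifiers (58.9%) had one. A list gene counted as without a row is one whose symbol matched none, and it may lie among the rows without a symbol. The test was limma 3.58.1 in R 4.3.3 on log2(FPKM + 1), with breed as the only term, trend and robust settings, and Benjamini-Hochberg adjustment over all genes tested at 0.05. Genes needed 1 FPKM in 3 libraries. A further 7 genes were left out because a library listed them at 0 while another held a scaled count of 10000 or more, which gave 11791 genes. Fitting was tested on simulated data. Ratios were compared by an exact permutation test. Library pairs of the same breed differed beyond sampling noise (chi-square per degree of freedom of at least 79.8). The enzymes, lists and alternatives were chosen with earlier results of these data known. Named were all members, every called gene of the wider list with the 2 most abundant of each group, and the 3 nearest genes of each called member and of the 2 members with the largest fold change. Alternatives covered the pseudocount, filter, normalization, moderation, the 7 genes, the replicate number as a block, each library left out and, added after seeing the data, limma on the scaled counts and the ratios of scaled counts. The nerve and glia markers and 1 lymphocyte marker are not reported here. The figures were drawn with Python 3.11.15.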

Additional observations from a re-analysis of the deposited data

How the results depend on the processing

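The fit called 360 genes, a fit with no filter on low values called 69, and one with the replicate number as a block called 205; how many genes these fits share was not counted. With no filter, 1 of the 5 enzymes and 0 of the neighbouring enzymes passed, and AK1 (-2.36) and AK3 (1.35) missed the threshold. With 1 library left out the counts ran from 27 to 524 for all genes, 0 to 4 for the 5 enzymes and 0 to 2 for the neighbouring enzymes. In the same settings the log2 fold change ran from -2.85 to -2.06 for AK1, 1.17 to 1.57 for AK3, -2.18 to -1.10 for AMPD1, 3.19 to 3.95 for AMPD3 and -0.41 to 0.10 for CKMT2, which turned positive without Wannanhua 3 (0.06) and Yorkshire 1 (0.10). The differences in log2 ratio ran from 5.40 to 6.42 for AMPD3 to AMPD1 and from 3.28 to 4.48 for AK3 to AK1. With a library left out fewer samples enter, and the cause of the other changes was not tested. Higher genes made up 208 of 360 calls, and 138 of 338 after quantile normalization, where AMPD3, AK1 and AK3 passed in the same direction. Same-numbered libraries of the breeds correlated in their deviations at 0.101, -0.012 and 0.107. Libraries 1 and 3 of both breeds correlated best with their own number, and Wannanhua 2 and Yorkshire 2 did not. With 3 libraries per breed, these correlations cannot decide whether the numbers pair the samples. Under the block the log2 fold change of AMPD1 missed the threshold as before (limma adjusted p = 0.0729) and 3 enzymes passed. The tests on recovered reads were not run.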
